A study of Homo sapiens with 18 samples.

Results

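Acini of JNK-knockout (JNKKO) MCF-10A.B2 cells treated with a homodimerizer and TGF-β1 were compared with their untreated controls, and stress genes were followed through the intermediate state, in which the dimerizer was present alone. MCF-10A.B2 derives from a human breast epithelial line of non-cancerous origin and expresses a chimeric HER2 receptor, and the B/B homodimerizer is a small bivalent drug that pairs its kinase. TGF-β1 is a cytokine that can arrest epithelial cells and drive them toward mesenchymal features. JNK is a kinase activated by stress and cytokines that phosphorylates AP-1 proteins such as JUN. Cells grew in growth factor reduced matrigel for 21 days. For the last 14 of these, EGF was exchanged for ethanol (JNKKO control), for the dimerizer (JNKKO dimerizer), or for the dimerizer together with TGF-β1 (JNKKO dimerizer with TGF-β1). All 3 groups carry the same knockout, and every group, WT or JNKKO, derives from MCF-10A.B2. The labels do not say which JNK genes were targeted, or whether JNKKO is 1 clone or a pool. Each group had 3 libraries, so 9 of the 18 libraries of the series hold the 2 steps, 6 of them form the comparison of dimerizer with TGF-β1 against control, and the 3 WT groups with the same treatments were used to test where JNKKO differed. Whether libraries of 1 group were cultured apart is not stated, so every p-value reflects the spread between these libraries alone, which may be technical.

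Step 1 is the difference between dimerizer and control, step 2 the difference between dimerizer with TGF-β1 and dimerizer, and both together make up the difference from control. A gene was said to add up when both steps passed the test in the same direction, and to cancel when they passed in opposite directions. Cells meet stress through several programs. Phosphorylation of eIF2 slows translation but lets ATF4 be made, and ATF4 raises genes for amino acid supply, tRNA charging and, with its partner CHOP (DDIT3), cell death: this is the integrated stress response. Unfolded protein in the endoplasmic reticulum (ER) signals through PERK (EIF2AK3), IRE1 (ERN1) with XBP1, and ATF6, and the IRE1 and ATF6 arms raise chaperones and the degradation machinery of the ER. Heat shock factors, NRF2, hypoxia-inducible factors, AP-1 and NF-κB govern further sets. The stress genes were 325 genes in 21 lists of such regulators and targets, of which 314 had enough counts to be tested.

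Library totals in the 9 JNKKO libraries ran from 24243537 to 32563064 expected counts, and values below are counts per 1000000 (CPM) of TMM-scaled library size. The label was checked on the JNK genes first. MAPK8 was read at 34.9, 33.5 and 31.99 CPM in the control libraries, 29.9, 29.3 and 28.9 under the dimerizer and 26.7, 25.5 and 27.4 with TGF-β1 added, and MAPK9 at 45.4, 42.1 and 44.6 CPM in the control libraries, 44.5, 42.7 and 44.3 under the dimerizer and 51.03, 53.9 and 52.2 with TGF-β1 added. RNA of both was counted in every library, which does not bear on the protein or on the edited bases. MAPK10 was low, at 7.04, 6.99 and 3.83 CPM on average. MAPK8 fell over both steps together by 0.33 on the log2 scale (edgeR adjusted p = 5.19e-06; -0.09 and not passed on log2(TPM + 1)), and MAPK9 rose at step 2 by 0.26 (edgeR adjusted p = 1.27e-05). NGFR and ERBB2, whose counts may include the chimeric receptor, averaged 179.8, 256 and 325 CPM and 73.98, 55.7 and 51.1 CPM. The 14 mammary epithelial markers, keratins among them, summed to 11817 to 12108 CPM per library in control, 9506 to 10350.3 under the dimerizer and 5528 to 5700.2 with TGF-β1, with GRHL2 at 0 in 7 of the 9 JNKKO libraries. Transcripts of the 13 mitochondrially encoded coding genes took 9.20% ± 0.0968 (SD, n = 3) of the counts in control, 7.46% ± 0.128 under the dimerizer and 4.70% ± 0.134 with TGF-β1. Of 20 TGF-β response genes, 20 were higher in the full comparison (33.8% of all tested genes). The 16 proliferation genes summed to 564 to 630.4 CPM per library in control, 309 to 369.7 under the dimerizer and 391 to 393 with TGF-β1. The 9 fibroblast markers summed to 25.6 to 30.8, 23.2 to 25.7 and 316 to 365 CPM in the same order, with COL1A2 and PDGFRA at 0 in 6 of the 9 libraries each. The 9 immune and endothelial markers summed to 44.1 to 46.0, 59.9 to 67.2 and 54.9 to 60.5 CPM, and CDH5 was at 0 in all 9. Most members did not follow this sum. Of the 5 tested, 1 was higher and 3 lower at step 1 (22.5% and 17.9% of all tested genes). In the full comparison 1 was higher and 4 lower (33.8% and 33.4% of all). These levels move with the groups, and their part in the results below was not tested. In bulk RNA, fewer cells of a kind and less RNA per cell cannot be told apart. One JNKKO library stood apart from its group: replicate 2 of the dimerizer gave a chi-square per gene of 6.11 and 6.02 against replicates 1 and 3, which gave 2.22 against each other. The third replicate of WT with dimerizer and TGF-β1 carries a genotype tag of JNK knockout that goes against its title. Its mitochondrially encoded share was 7.70%, against 8.68% and 8.10% in its group and 4.60% to 4.85% in JNKKO with the same treatment. Replicate 1 of this WT group stood further apart, with a chi-square per gene of 8.91 and 11.4 against replicates 2 and 3. Those gave 3.25 against each other. Both WT libraries enter only the comparison with WT and the shared estimate of spread.

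Over all genes, the full treatment changed 11379 of 16911 tested genes (67.3%; 5723 higher and 5656 lower; adjusted p under 0.05 by Benjamini-Hochberg in edgeR's quasi-likelihood test), and 3463 of these (20.5% of those tested) by at least 2-fold. Step 1 changed 6829 (40.4%; 3803 higher and 3026 lower) and step 2 changed 10271 (60.7%; 5154 higher and 5117 lower). On the deposited TPM, tested with limma on log2(TPM + 1), the median of all genes moved by 0.16 at step 2 and by 0.13 in all, and the splits were 2815 higher and 3219 lower at step 1, 8046 and 2631 at step 2, and 7751 and 3625 in all. With upper-quartile factors the split was 3049 and 3755 at step 1 and 5120 and 6340 in all. Matrix and matrix-building genes were among the 8 largest rises. FN1, fibronectin, averaged 17.3 ± 10.7, 49.2 ± 9.09 and 15279 ± 685 CPM over control, dimerizer and dimerizer with TGF-β1 (SD, n = 3 each). POSTN, the matricellular protein periostin, averaged 2.31 ± 1.93, 1.68 ± 0.317 and 2739 ± 77.4 CPM, with log2 steps of -0.45 and 10.64, of which only step 2 passed the test. TGM2, a protein-crosslinking transglutaminase, averaged 2.09 ± 0.906, 10.02 ± 1.59 and 1219 ± 95.5 CPM. HAS2, which makes hyaluronan, had no count in the 3 control libraries and 10.7 ± 0.698 CPM at the end, at least 291-fold higher against a floor of 3 counts over the control group. CGB8, a chorionic gonadotropin beta gene with near-identical copies that counting can mix up, went from no count to 36.1 ± 1.07 CPM, at least 986-fold higher against the same floor. KANK4, ACKR1 and DGKI made up the remainder of the 8 largest rises. The 8 largest falls included genes of the stratified epidermis: KRT1, an epidermal keratin, averaged 76.1 ± 14.1, 14.98 ± 3.75 and 0.865 ± 0.349 CPM, the desmosomal cadherin DSG1 14.2 ± 3.71, 3.74 ± 0.132 and 0.323 ± 0.0935 CPM, and CALML3, a calmodulin-like protein of epithelia, 28.5 ± 1.44, 7.78 ± 0.767 and 0.704 ± 0.236 CPM. PLA2G4F, a phospholipase A2, fell most, from 36.2 to 0.164 CPM. For all 4 both steps passed the test downward.

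Most stress genes passed the test at 1 step or at both. Of the 314 tested, 98 added up (31.2%, against 18.6% of all tested genes), 67 upward and 31 downward, and 68 cancelled (21.7%, against 11%). A further 43 passed at step 1 only (13.7%, against 10.8%), 77 at step 2 only (24.5%, against 31.2%) and 28 at neither (8.92%, against 28.5%). Members and lists were chosen with earlier results of these data known. The part of that choice in these shares was not tested. Among the 68 that cancelled, 55 rose and then fell and 13 fell and then rose. On log2(TPM + 1) 48 cancelled, 21 rising first and 27 falling first, and with upper-quartile factors the genes that added up were 56 upward and 41 downward. Of the 68 called by edgeR on the counts, 23 returned so far that the full comparison did not pass the test, 26 returned in part and kept the direction of step 1, and 19 overshot and ended on the side of step 2. In the full comparison 175 stress genes were higher (55.7%, against 33.8% of all tested genes) and 82 lower (26.1%, against 33.4%), with a median log2 difference of 0.21, against -0.012 over all tested genes. The stress genes were also more abundant, with a median of 66.2 CPM against 15.4. Among genes at 10 CPM or more, 31.9% of 276 stress genes added up against 25.04% of all, and 22.5% cancelled against 15.3%. With both steps at least 1.2-fold, 57 added up (18.2%, against 11.02%) and 48 cancelled (15.3%, against 4.97%). Steps of at least 2-fold on both sides were rare: 3 of the 314 stress genes added up and 3 cancelled at that size, against 345 and 108 of all 16911, so the share that added up was then lower among stress genes than over all. The 2 steps share the 3 dimerizer libraries with opposite sign, so an error in those libraries raises one step, lowers the other and can put a gene in the cancelling class. Without the dimerizer library that stood apart, 60 cancelled, 54 of them among the 68, and 97 added up. Of 119 named genes that added up or cancelled, 95 did so without any 1 of the JNKKO libraries, and 15 lost the class without that one library.

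**Figure D1:**
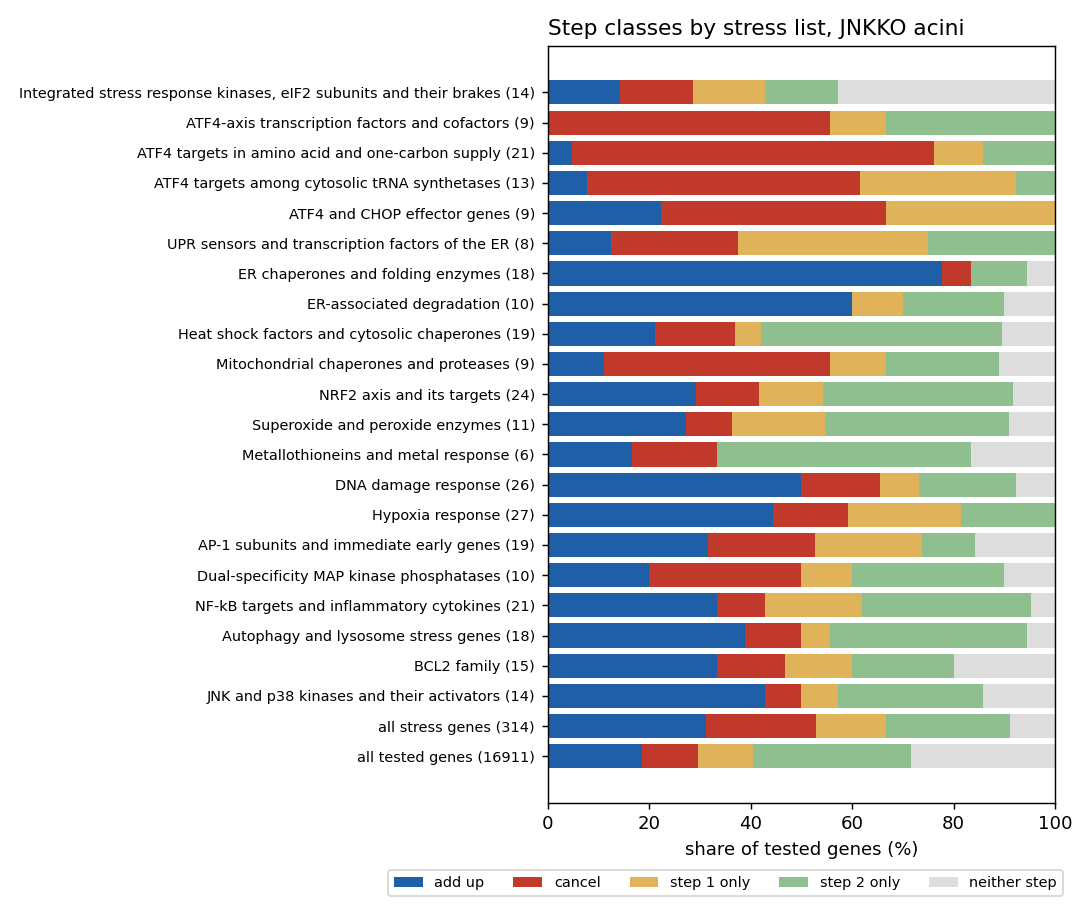
Share of the tested genes of each of the 21 stress lists, of all 314 stress genes and of all 16911 tested genes (number tested in brackets, horizontal axis in percent) that add up, cancel, pass at 1 step only or pass at neither. Cancelling genes make up 15 of 21 in the amino acid list, and genes that add up make up 14 of 18 among ER chaperones.

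The factors of the ATF4 arm rose with the dimerizer and fell back when TGF-β1 was added. Of the 9 listed, 6 rose and 0 fell at step 1 (median log2 0.47), 1 rose and 7 fell at step 2 (median -0.48), and 5 cancelled while none added up. Over all tested genes 22.5% rose and 17.9% fell at step 1, 30.5% and 30.3% at step 2, and 11% cancelled. ATF4 itself was at 342, 342 and 347 CPM in the control libraries, 478, 519 and 477 under the dimerizer and 391, 381 and 396 with TGF-β1 added. The dimerizer libraries lay above both other groups and none of the 3 groups overlapped, with log2 differences of 0.51 ± 0.037 for step 1, -0.34 ± 0.036 for step 2 and 0.18 ± 0.037 in all (SE; edgeR adjusted p = 3.48e-12, 3.95e-09 and 8.91e-05). ATF4 is controlled mainly through translation, so its RNA is only part of its activity. DDIT3, which encodes the death-linked factor CHOP, was at 10.1, 9.53 and 9.54 CPM in the control libraries, 13.8, 18.97 and 14.1 under the dimerizer and 9.597, 9.76 and 9.31 with TGF-β1 added. All dimerizer values were the highest and the outer groups overlapped, so DDIT3 rose by 0.69 ± 0.11, fell by 0.71 ± 0.11 and ended -0.025 ± 0.12 from control (SE; edgeR adjusted p = 1.55e-05, 3.5e-06 and 0.858). TRIB3, a pseudokinase that ATF4 and CHOP induce and that restrains them, read 51.03, 47.8 and 46.2 CPM in the control libraries, 129, 193 and 137 under the dimerizer and 91.9, 87.5 and 92.6 with TGF-β1 added. It returned in part, with log2 differences of 1.67 ± 0.15 for step 1, -0.76 ± 0.14 for step 2 and 0.91 ± 0.15 in all (SE; edgeR adjusted p = 1.33e-06, 0.000462 and 0.000153). CEBPG, which pairs with ATF4 on DNA, went through 62.7 ± 1.39, 88.5 ± 11.96 and 63.7 ± 1.41 CPM and returned. On log2(TPM + 1) step 2 of ATF4 was -0.10 and did not pass the test (limma adjusted p = 0.0589). Those of DDIT3, TRIB3 and CEBPG were -0.41, -0.48 and -0.21 and passed. The full difference of CEBPG, at 0.23, also passed there (limma adjusted p = 0.00771). ATF3, a stress-induced repressor, did not follow. It read 3.52, 3.601 and 3.75 CPM in the control libraries, 2.61, 4.06 and 2.57 under the dimerizer and 0.841, 0.738 and 1.01 with TGF-β1 added, with a fall at step 2 of 1.85 ± 0.21 (SE; edgeR adjusted p = 1.12e-08). Control and dimerizer overlapped only through dimerizer replicate 2, and without that library step 1 was -0.48 and passed (edgeR adjusted p = 0.0295), so that ATF3 added up downward.

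The genes acting above ATF4 were followed next. Among 14 genes for eIF2 kinases, eIF2 and eIF2B subunits and the phosphatase brakes, 5 rose and 1 fell at step 1 (40.4% of all tested genes passed). At step 2, 2 rose and 4 fell (60.7% of all), and 3 were higher and 3 lower in the full comparison (67.3% of all). On log2(TPM + 1) 9 of the 14 were higher and 0 lower both at step 2 and in all. EIF2AK3, the ER-membrane kinase PERK, was at 16.4, 16.5 and 16.8 CPM with log2 steps of 0.01 and 0.023, neither of which passed the test, while on log2(TPM + 1) its step 2 of 0.25 and full difference of 0.23 did (limma adjusted p = 0.0043 and 0.00579). IMPACT, an inhibitor of the amino acid sensor GCN2, cancelled and returned (57.9, 72.9 and 58.7 CPM, log2 steps 0.33 and -0.31). PPP1R15A (GADD34), the stress-induced subunit that restores translation by dephosphorylating eIF2, and DNAJC3 (P58IPK), an ER-resident inhibitor of PERK, added up. PPP1R15A rose from 21.7 through 32.01 to 37.4 CPM and DNAJC3 from 77.3 through 89.97 to 147 CPM.

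**Figure D2:**
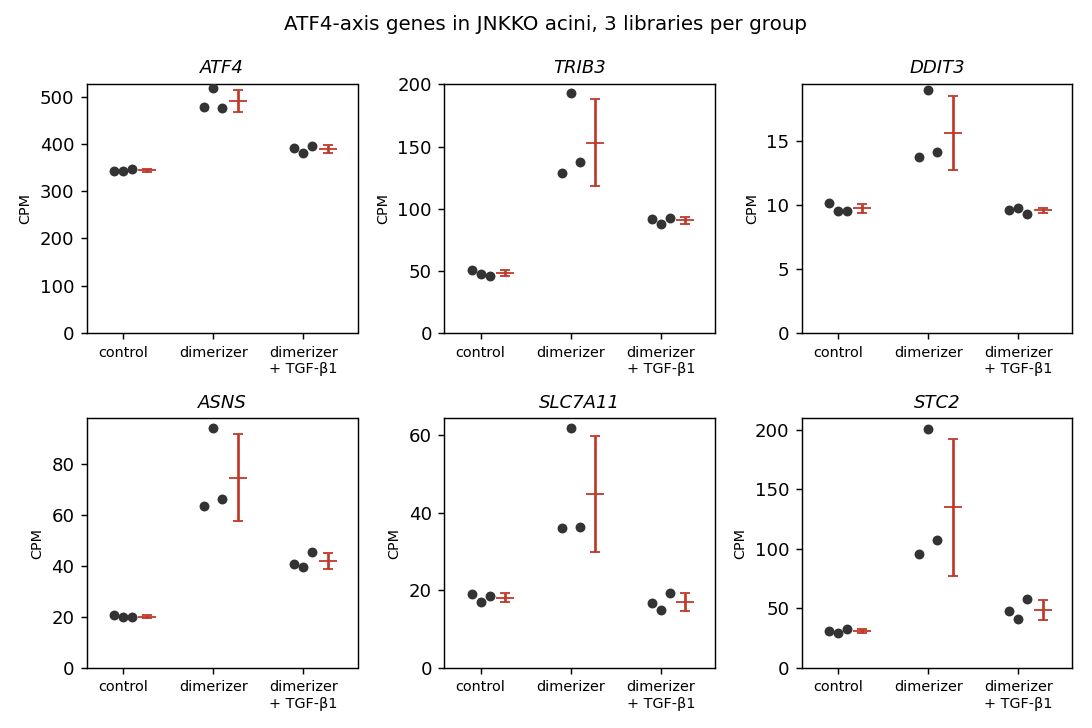
CPM on a linear axis from 0 in the 3 libraries (points) of JNKKO control, dimerizer and dimerizer with TGF-β1, with the group mean ± SD in red, for ATF4 and 5 of its axis. The dimerizer libraries are the highest in every panel, and the outlying upper point in them is replicate 2.

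ATF4 targets for amino acid and one-carbon supply rose with the dimerizer, and most fell back with TGF-β1. Of 21 genes, 17 rose and 1 fell at step 1 (22.5% and 17.9% of all tested genes), with a median log2 of 0.77 in the list. At step 2, 0 rose and 19 fell (30.5% and 30.3% of all), with a median of -0.61. Of the 21, 15 cancelled (11% of all): 2 returned, 9 returned in part and 4 overshot. ASNS, asparagine synthetase, was at 20.8, 19.8 and 19.9 CPM in the control libraries, 63.5, 94.4 and 66.4 under the dimerizer and 40.8, 39.5 and 45.4 with TGF-β1 added. No groups overlapped, control was lowest, and the log2 differences were 1.89 ± 0.15 for step 1, -0.84 ± 0.14 for step 2 and 1.05 ± 0.15 in all (SE; edgeR adjusted p = 2.42e-07, 0.000111 and 3.3e-05). SLC7A11, the cystine importer, was at 18.98, 16.9 and 18.4 CPM in the control libraries, 36.1, 61.9 and 36.3 under the dimerizer and 16.6, 14.8 and 19.3 with TGF-β1 added. Its final libraries overlapped control, and the full difference of -0.099 did not pass the test (edgeR adjusted p = 0.71), with steps of 1.32 ± 0.20 and -1.41 ± 0.20 (SE; edgeR adjusted p = 0.000153 and 3.74e-05). PSAT1, of serine synthesis, was at 97.8, 92.7 and 92.9 CPM in the control libraries, 141, 194 and 146 under the dimerizer and 70.3, 62.2 and 75.6 with TGF-β1 added, so the final libraries lay below control and PSAT1 overshot, ending at -0.45 ± 0.11 (SE; edgeR adjusted p = 0.00273). PCK2, the mitochondrial PEP carboxykinase, averaged 10.4 ± 0.587, 34.2 ± 7.64 and 17.3 ± 1.79 CPM, and SLC1A4, a serine and alanine transporter, 4.2 ± 0.964, 16.9 ± 5.42 and 9.16 ± 0.655 CPM, both returning in part. One gene of the list added up, downward: SLC7A5, the leucine importer LAT1, went from 1014 through 745 to 289 CPM, with log2 steps of -0.45 and -1.37.

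Transfer RNA synthetases rose with the dimerizer and most ended above control. Of 13 genes, 12 rose at step 1 (22.5% of all tested genes), with a median log2 of 0.70 in the list. At step 2, 1 rose and 8 fell (30.5% and 30.3% of all), with a median of -0.17. In the full comparison 10 were higher and 1 lower (33.8% and 33.4% of all), with a median of 0.48. Of the 13, 7 cancelled (11% of all). Among the 7 that cancelled, EPRS, the glutamyl-prolyl synthetase, read 372, 375 and 353 CPM in the control libraries, 466, 591 and 488 under the dimerizer and 332, 319 and 346 with TGF-β1 added. The dimerizer libraries lay above control and the final ones below it, with steps of 0.49 ± 0.062 and -0.63 ± 0.062 (SE; edgeR adjusted p = 5.88e-06 and 9.43e-08), and the full difference of -0.14 did not pass the test (edgeR adjusted p = 0.0576). It passed in 8 of the alternative settings, in which EPRS overshot, with upper-quartile factors at -0.20 (edgeR adjusted p = 0.00394). SARS, the seryl enzyme, returned (173, 234 and 168 CPM) and YARS, the tyrosyl enzyme, returned in part (88.3, 142 and 108 CPM). CARS, the cysteinyl enzyme, added up, at 34.6 ± 1.05, 63.7 ± 4.42 and 72.2 ± 1.98 CPM.

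Effectors downstream of ATF4 and CHOP split between both patterns. Of the 9 tested of 12, 8 rose and 1 fell at step 1 (22.5% and 17.9% of all tested genes). At step 2, 2 rose and 4 fell (30.5% and 30.3% of all). In this list 4 cancelled (11% of all) and 2 added up (18.6%). STC2, a secreted calcium and phosphate regulator, was at 31.1, 29.1 and 32.8 CPM in the control libraries, 96.01, 201 and 107 under the dimerizer and 47.8, 40.8 and 57.7 with TGF-β1 added. Every dimerizer library exceeded the others, with steps of 2.13 ± 0.25 and -1.47 ± 0.23 (SE; edgeR adjusted p = 1.38e-05 and 0.000106), and the full difference of 0.65 lost its call without any 1 of the control libraries, or without replicate 1 or 3 of the final group. GDF15, a stress cytokine, was at 18.03, 22.5 and 22.03 CPM in the control libraries, 32.9, 53.5 and 34.9 under the dimerizer and 19.4, 17.8 and 18.6 with TGF-β1 added and returned, with steps of 0.96 ± 0.16 and -1.13 ± 0.16 (SE; edgeR adjusted p = 0.000265 and 3.24e-05). SESN2, a leucine-sensing brake on mTORC1, averaged 41.5 ± 0.735, 61.3 ± 13.02 and 46.2 ± 3.13 CPM and also returned. CHAC1, which degrades glutathione, was at 0.669, 0.388 and 0.919 CPM in the control libraries, 7.99, 13.7 and 8.24 under the dimerizer and 8.69, 7.51 and 9.75 with TGF-β1 added. Its first step of 3.93 ± 0.29 (SE; edgeR adjusted p = 2.62e-09) was kept, since step 2 of -0.21 did not pass the test and the last groups overlapped. The lipoprotein receptor VLDLR added up, from 0.839 through 3.87 to 10.9 CPM, as did the TRAIL death receptor TNFRSF10B, from 187 through 209 to 239.7 CPM.

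The dimerizer library that stood apart, replicate 2, had the highest dimerizer value for ATF4, DDIT3, TRIB3, ASNS, SLC7A11, PSAT1, EPRS, STC2, GDF15 and CHAC1. Without it the steps were 0.47 and -0.29 for ATF4, 1.46 and -0.55 for TRIB3, 0.52 and -0.54 for DDIT3, 1.69 and -0.63 for ASNS, 1.72 and -1.06 for STC2, and 1.002 and -1.101 for SLC7A11, all on the log2 scale and all still past the threshold. The amino acid list then held 14 that cancelled and 2 that added up, and the tRNA list 7 and 4, in place of 7 and 1, with 4 genes rising at step 2 in place of 1. On log2(TPM + 1), where the median of all genes rises at step 2, 9 of the 21 amino acid genes and 3 of the 13 tRNA genes cancelled, and 4 tRNA genes rose and 3 fell at step 2. Step 2 of ATF4 was then -0.10, and that of SESN2 -0.13, neither past the threshold. The second steps of IMPACT, CANX, HSPA8, NDRG1, DUSP5, DUSP7 and MAPK11 also missed it on that scale, as did the full difference of HK2. Centring each library on its median brought the cancelling genes back to 15 and 7.

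A short DNA element is shown because it is shared by genes that followed different courses. The CARE (C/EBP-ATF response element) motif was searched as TGATGNAA on both strands of the 250 bases before each gene start, in promoters from RefSeq on GRCh38.p14, which held 275 of the 325 stress genes. It occurred in 6 of 41 ATF4-list promoters (14.6%), in 2 of 54 of genes that cancelled (3.70%), in 4 of 85 of genes that added up (4.71%), and in 3.19% of all 27305 promoters. In the following windows, written 5′ to 3′ on the gene's strand, capitals mark the motif, or its reverse complement where it lies on the opposite strand. ASNS returned in part, CHAC1 rose at step 1 only, ATF3 fell at step 2 only and HERPUD1 added up.
ASNS (chr7:97872449-97872496, minus strand): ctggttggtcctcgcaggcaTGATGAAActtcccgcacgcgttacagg
CHAC1 (chr15:40953242-40953289, plus strand): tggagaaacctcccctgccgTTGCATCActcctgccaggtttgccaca
ATF3 (chr1:212565196-212565243, plus strand): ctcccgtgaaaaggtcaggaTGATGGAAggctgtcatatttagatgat
HERPUD1 (chr16:56931946-56931993, plus strand): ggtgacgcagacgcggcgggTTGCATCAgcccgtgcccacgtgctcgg
The motif begins 68 bases before the start of ASNS, 209 before CHAC1, 191 before ATF3 and 176 before HERPUD1. A match is a description of the letters and does not show that a factor bound there.

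ER chaperones rose at both steps. Of 18 genes, 15 rose and 0 fell at step 1 (median log2 0.24), 16 rose and 1 fell at step 2 (median 0.45), and 16 were higher in all (median 0.72). Over all tested genes 22.5% rose at step 1, 30.5% at step 2 and 33.8% in all. Of the 18, 14 added up (18.6% of all tested genes) and 1 cancelled (11%). HSPA5 (BiP), the main ER chaperone and the brake on the sensors, was at 379.9, 372 and 362 CPM in the control libraries, 516, 595 and 535 under the dimerizer and 667, 674 and 669.7 with TGF-β1 added. The groups formed 3 separate levels, with log2 differences of 0.56 ± 0.043 for step 1, 0.29 ± 0.043 for step 2 and 0.85 ± 0.043 in all (SE; edgeR adjusted p = 2.17e-11, 1.15e-06 and 2.46e-16). HYOU1, its nucleotide exchange partner, was at 113, 113 and 109.8 CPM in the control libraries, 144, 175 and 146 under the dimerizer and 211, 201 and 219 with TGF-β1 added and climbed by 0.47 ± 0.061 and 0.44 ± 0.06 (SE; edgeR adjusted p = 4.48e-06 and 2.57e-06). MANF, a secreted ER stress protein, was at 24.9, 26.2 and 26.1 CPM in the control libraries, 36.2, 37.1 and 37.9 under the dimerizer and 65.8, 64.9 and 64.6 with TGF-β1 added, again without overlap, with a full difference of 1.34 ± 0.06 (SE; edgeR adjusted p = 7.91e-18). ERO1A, the oxidase that drives disulfide formation, went through 67.9 ± 0.481, 112 ± 5.29 and 155 ± 5.46 CPM, and DNAJB9 (ERdj4), a J-domain partner of BiP, through 13.9 ± 1.32, 17.5 ± 1.46 and 24.01 ± 2.95 CPM. CANX, the membrane lectin calnexin, was the exception that cancelled, at 852, 942 and 846 CPM with steps of 0.14 and -0.15. With upper-quartile factors 13 rose at step 1 and 12 of the 18 added up.

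Genes for disposal of misfolded ER protein also rose. Of the 10 tested, 7 rose at step 1, 8 at step 2 and 9 in all, against 22.5%, 30.5% and 33.8% of all tested genes. In this list 6 added up (18.6% of all) and none fell or cancelled. With upper-quartile factors 5 rose and 1 fell at step 1 and the latter cancelled. EDEM1, a lectin that marks glycoproteins for disposal, was at 96.4, 97.9 and 96.6 CPM in the control libraries, 146, 156 and 148 under the dimerizer and 199.5, 195 and 200.2 with TGF-β1 added, with steps of 0.63 ± 0.035 and 0.40 ± 0.034 (SE; edgeR adjusted p = 1.91e-14 and 2.2e-11). HERPUD1, of the retrotranslocation complex, was at 33.1, 35.3 and 31.6 CPM in the control libraries, 36.3, 42.8 and 37.9 under the dimerizer and 54.5, 54.4 and 57.3 with TGF-β1 added, and most of its rise came at step 2 (0.50 ± 0.054 SE, edgeR adjusted p = 3.1e-09). EDEM2 went from 17.3 to 25.4 CPM and SELENOS, a selenoprotein of the same complex, from 27.6 to 45.2 CPM. The regulators were less uniform. Of 8 tested UPR factors 5 rose and 1 fell at step 1 (40.4% of all tested genes passed). At step 2, 3 rose and 2 fell (60.7% of all passed), against 7 and 0 on log2(TPM + 1). XBP1, whose RNA is spliced by IRE1, was at 41.3, 40.2 and 42.6 CPM in the control libraries, 69.4, 99.9 and 75.5 under the dimerizer and 80.6, 84.02 and 87.8 with TGF-β1 added. It rose at step 1 by 0.98 ± 0.11 (SE; edgeR adjusted p = 4.61e-06), with step 2 at 0.04 (edgeR adjusted p = 0.759) and the last groups overlapping, and gene counts do not separate its spliced form. Without dimerizer replicate 2, which had its highest value, step 2 was 0.21 and passed. CREB3L2, an ER-anchored factor of secretory cells, went from 28.6 through 32.4 to 62.2 CPM. ERN1 and ATF6 passed as cancelling by small steps (0.23 and -0.34, and 0.31 and -0.10), but lost the class without any 1 of 3 and 4 single libraries, and on log2(TPM + 1) step 2 of ATF6 was 0.14. The UPR element, searched as TGACGTGG, occurred in 2 of 27 ER promoters (7.41%) and in 0.667% of all. HYOU1, which added up, carries it (in capitals) from 188 bases before its start.
HYOU1 (chr11:119057366-119057413, minus strand): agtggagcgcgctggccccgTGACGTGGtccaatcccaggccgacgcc

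**Figure D3:**
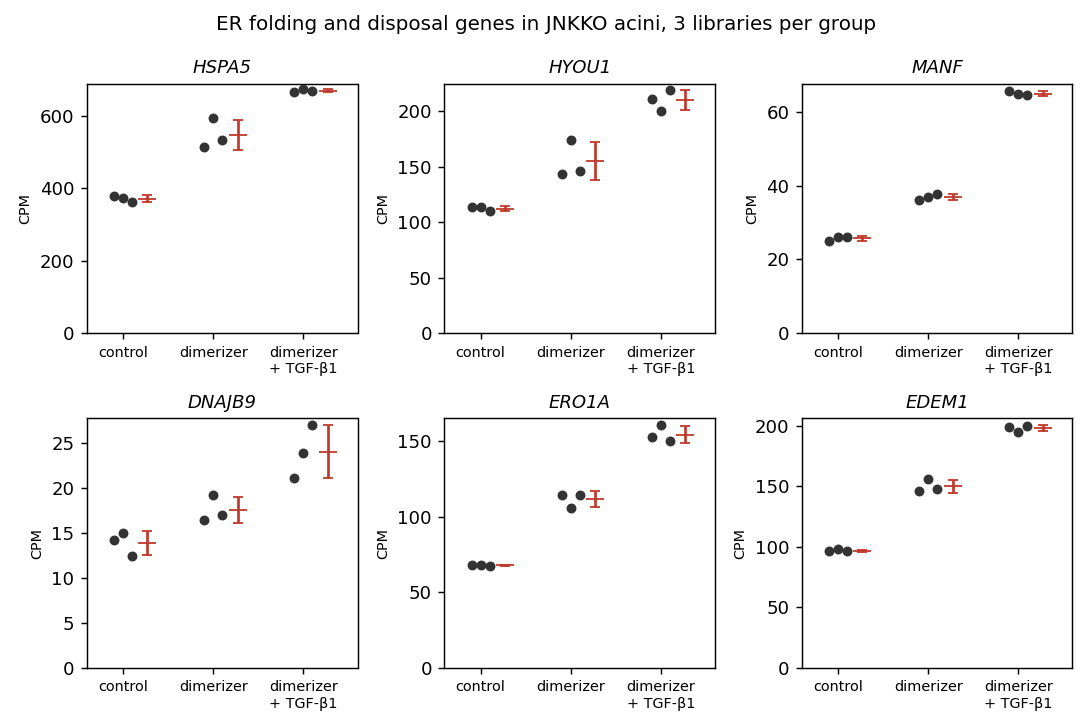
CPM on a linear axis from 0 in the 3 libraries (points) of each JNKKO group, with the group mean ± SD in red, for 6 ER folding and disposal genes. Group means climb from left to right, for HSPA5 from 371 through 548 to 670.4 CPM on average.

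**Figure D4:**
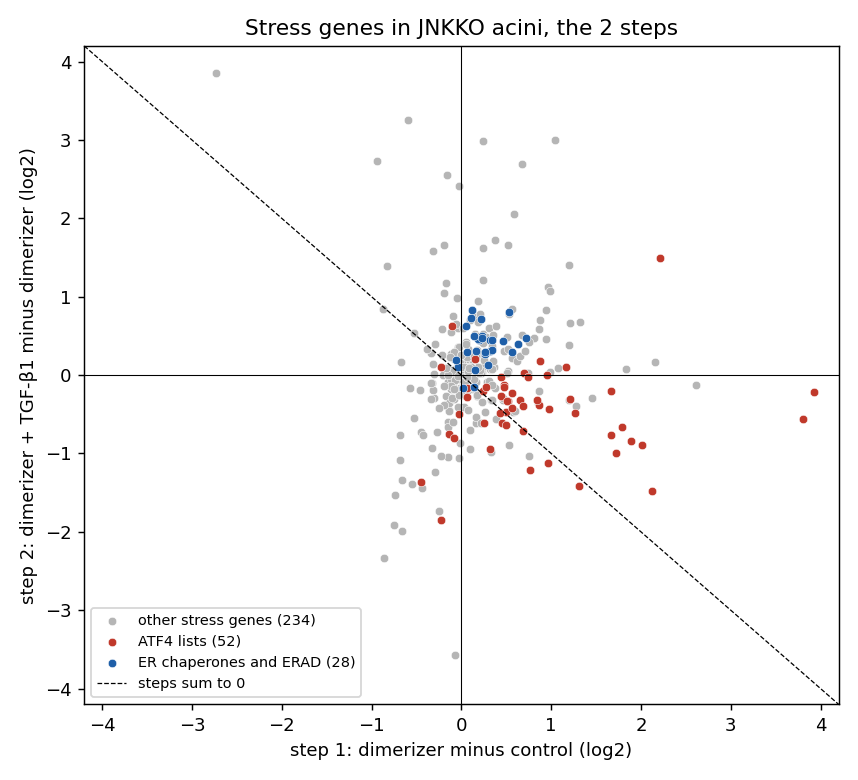
Log2 difference at step 2 against that at step 1 for the 314 tested stress genes, 1 point per gene, with the 52 genes of the ATF4 lists in red and the 28 ER chaperone and disposal genes in blue. Red points lie mostly to the lower right, blue ones to the upper right, and both axes share the dimerizer libraries with opposite sign, which alone tilts points toward the dashed line.

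Cytosolic chaperones moved in both directions. Of 19 heat shock genes 2 rose and 6 fell at step 1 (22.5% and 17.9% of all tested genes). At step 2, 9 rose and 7 fell (30.5% and 30.3% of all), and 10 were higher and 6 lower in all (33.8% and 33.4%). In this list 4 added up (18.6% of all), all downward, and 3 cancelled (11%), so several counts lay near the shares over all genes. On log2(TPM + 1) 11 were higher and 2 lower at step 2, 13 and 2 in all, and 2 added up. HSPB1, the small heat shock protein HSP27, was at 411, 427 and 453 CPM in the control libraries, 320.2, 254 and 319.9 under the dimerizer and 436, 444 and 421 with TGF-β1 added. It dipped by 0.53 ± 0.084 and came back by 0.54 ± 0.084 (SE; edgeR adjusted p = 0.000163 and 6.07e-05) into the control range. HSPA8, the constitutive HSC70, did the opposite in part, at 1346 ± 17.1, 1858 ± 47.9 and 1495 ± 22.7 CPM. HSPA4L, an HSP110-type exchange factor, added up downward, from 96.3 through 78.7 to 33.3 CPM. HSPA1B, an inducible HSP70 whose reads can be shared with its near-identical copy HSPA1A, fell by 0.58 in all. The heat shock element GAANNTTC lies in 8 of 18 promoters of these genes (44.4%, against 5.85% of all). Of 9 mitochondrial chaperones and proteases, 5 rose and 1 fell at step 1 (22.5% and 17.9% of all tested genes). At step 2, 7 fell (30.3% of all), and 5 were lower in the full comparison (33.4% of all). AFG3L2, an inner-membrane protease, added up downward (126, 114 and 75.2 CPM), and DNAJA3, a mitochondrial J-domain protein, rose and then overshot (80.7, 90.3 and 62.2 CPM). HSPA9 and LONP1 were also called as cancelling, but their first steps of 0.16 and 0.18 did not pass without dimerizer replicate 2. With that library left out 1 of the 9 cancelled, in place of 4, and on log2(TPM + 1) none did and 3 rose and 4 fell at step 2. The fall in mitochondrially encoded RNA given above ran alongside.

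Of 24 genes on the NRF2 axis, which governs antioxidant enzymes, 5 rose and 8 fell at step 1 (22.5% and 17.9% of all tested genes). At step 2, 8 rose and 11 fell (30.5% and 30.3% of all). In the full comparison 10 were higher and 11 lower (33.8% and 33.4% of all). The split at step 2 on log2(TPM + 1) was 13 higher and 7 lower. NFE2L2, which encodes NRF2, fell to 88.1 from 133 CPM (-0.59 ± 0.044 SE, edgeR adjusted p = 8.64e-13). GSR, glutathione reductase, was at 86.3, 91.4 and 81.4 CPM in the control libraries, 59.2, 59.8 and 58.2 under the dimerizer and 22.7, 23.5 and 21.3 with TGF-β1 added, falling at both steps by 0.55 and 1.39 on the log2 scale (edgeR adjusted p = 6.59e-10 and 2.1e-18) without overlap. AKR1B10, a carbonyl reductase, added up downward from 10.1 through 5.59 to 1.104 CPM. HMOX1, heme oxygenase, was low and rose at step 2 only, at 0.669, 0.741 and 0.881 CPM in the control libraries, 0.897, 0.671 and 0.515 under the dimerizer and 4.24, 3.72 and 4.06 with TGF-β1 added (2.55 ± 0.21 SE, edgeR adjusted p = 9.53e-12). NQO1, a quinone reductase, passed at step 1, downward (101, 80.2 and 74.5 CPM), and at step 2 in 3 of the alternative settings, and GCLM, of glutathione synthesis, at neither (10.1, 9.88 and 10.9 CPM). The iron store subunit FTH1 returned in part (3781, 4902 and 4379.9 CPM), though on log2(TPM + 1) its step 2 was 0.13. AKR1C3 belongs to a family of close copies and its values are uncertain. Among 11 superoxide and peroxide enzymes SOD2, the mitochondrial superoxide dismutase, was at 1779, 1962 and 1912 CPM in the control libraries, 1406, 1403 and 1366 under the dimerizer and 465, 512 and 556 with TGF-β1 added. It fell at both steps, by 0.44 ± 0.095 and 1.45 ± 0.098 (SE; edgeR adjusted p = 0.00238 and 1.64e-08). In this list 3 genes rose and 3 fell at step 1 (22.5% and 17.9% of all tested genes). At step 2, 4 rose and 4 fell (30.5% and 30.3% of all), against 8 and 2 on log2(TPM + 1). The edgeR counts lay near the shares over all genes. Catalase (CAT) fell at both (55.2, 44.5 and 38.9 CPM), though on log2(TPM + 1) its step 2 was 0.056. Of 6 tested metal response genes, 1 rose and 1 fell at step 1 (22.5% and 17.9% of all tested genes), near the shares over all genes. At step 2, 4 rose and 1 fell (30.5% and 30.3% of all). The zinc exporter SLC30A1 added up (154, 219.9 and 308 CPM), MT2A rose at step 2 only (798, 890.4 and 1490.4 CPM), and MT1E dipped and returned (158, 135 and 162 CPM), where reads can be shared among metallothionein copies.

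Of 26 DNA damage response genes, 8 rose and 11 fell at step 1 (22.5% and 17.9% of all tested genes). At step 2, 12 rose and 10 fell (30.5% and 30.3% of all). In this list 13 added up (18.6% of all), 6 upward and 7 downward, and 4 cancelled (11%). Without dimerizer replicate 2, 11 added up and 2 cancelled, and on log2(TPM + 1) 8 added up, with 14 higher and 6 lower at step 2. MDM2, a ubiquitin ligase, passed at neither step and was lower in all (262, 249.7 and 239.6 CPM, log2 -0.13). Step 1 of MDM2 passed in 9 of the alternative settings and step 2 in 3, and with upper-quartile factors both passed, at -0.12 and -0.078 (edgeR adjusted p = 0.00715 and 0.0484). CDKN1A, the p21 brake on the cell cycle, was at 212, 216 and 223 CPM in the control libraries, 308, 331 and 305 under the dimerizer and 546, 538 and 530.1 with TGF-β1 added. The 3 levels were separate, with steps of 0.53 ± 0.038 and 0.77 ± 0.038 (SE; edgeR adjusted p = 3.9e-12 and 1.13e-16). GADD45A, a damage and growth arrest gene that activates stress kinases, was at 44.3, 48.1 and 51.3 CPM in the control libraries, 104, 118 and 106 under the dimerizer and 141, 146 and 142 with TGF-β1 added, most of its rise coming at step 1 (1.19 ± 0.072 SE, edgeR adjusted p = 2.74e-10). TP53I3, a quinone oxidoreductase, went through 71.8 ± 4.44, 138 ± 1.53 and 247 ± 11.6 CPM. FDXR, a mitochondrial ferredoxin reductase, added up downward (42.5, 29.6 and 20.1 CPM). The relative GADD45B dipped and then rose past control (8.41, 6.85 and 20.2 CPM), its dip of -0.32 failing the test without any 1 of 4 libraries. TP53INP1, an autophagy-linked stress gene, dipped and returned (49.4, 39.1 and 47.6 CPM).

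Among 15 tested BCL2 family genes, 5 rose and 4 fell at step 1 (40.4% of all tested genes passed). At step 2, 5 rose and 5 fell (60.7% of all passed), against 6 and 2 on log2(TPM + 1). BCL2L11 (BIM), a BH3-only killer linked to lumen clearing, was at 62.1, 61.8 and 57.5 CPM in the control libraries, 39.7, 37.6 and 36.04 under the dimerizer and 17.1, 18.3 and 17.8 with TGF-β1 added. It fell at both steps with no overlap, by 0.68 ± 0.062 and 1.09 ± 0.07 (SE; edgeR adjusted p = 1.02e-09 and 1.82e-13). HRK, another BH3-only gene, went the same way (9.68, 6.14 and 2.41 CPM). BMF, a BH3-only gene tied to detachment, was at 5.99, 4.02 and 3.83 CPM in the control libraries, 2.73, 1.56 and 3.03 under the dimerizer and 15.6, 16.6 and 15.9 with TGF-β1 added, so it dipped by 0.94 and then overshot by 2.73 (edgeR adjusted p = 0.000681 and 1.16e-11). The survival gene BCL2L1 added up (42.2 ± 3.37, 60.3 ± 0.557 and 75.7 ± 2.66 CPM). MCL1, the short-lived survival protein, rose at the first step (709 ± 3.41, 1492 ± 49.9 and 1588 ± 43.7 CPM), its second step of 0.09 failing the test without any 1 of 4 libraries and with upper-quartile factors.

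Hypoxia genes rose with the dimerizer and most ended above control. Of 27, 21 rose and 1 fell at step 1 (median log2 0.34), 14 rose and 7 fell at step 2 (median 0.17), and 21 were higher and 5 lower in all (median 0.76). Over all tested genes 22.5% rose and 17.9% fell at step 1, 30.5% and 30.3% at step 2, and 33.8% and 33.4% in all. Of the 27, 12 added up (18.6% of all tested genes), all upward, and 4 cancelled (11%). HIF1A, the regulated subunit of the factor, passed at step 1 and was at 131, 149 and 159.7 CPM. Its step 2 of 0.10 did not pass in the edgeR test of all libraries, but did in 11 of the alternative settings, among them log2(TPM + 1) at 0.35 (limma adjusted p = 3.23e-05), where HIF1A adds up. PFKFB4, a regulator of glycolysis, was at 11.8, 12.5 and 13.6 CPM in the control libraries, 27.5, 19.7 and 26.7 under the dimerizer and 52.3, 57.6 and 50.5 with TGF-β1 added, with steps of 0.96 ± 0.12 and 1.12 ± 0.10 (SE; edgeR adjusted p = 5.54e-06 and 4.68e-08). ADM, the vasoactive peptide adrenomedullin, was at 12.8, 12.5 and 12.8 CPM in the control libraries, 25.5, 18.8 and 25.9 under the dimerizer and 36.95, 38 and 38.4 with TGF-β1 added, and P4HA1, a collagen prolyl hydroxylase, averaged 52.3 ± 1.29, 95.1 ± 8.03 and 142 ± 1.596 CPM. In all 3 the dimerizer replicate 2 was the lowest of its group, and no groups overlapped. NDRG1 (N-myc downstream regulated) rose by 1.28 ± 0.094 and gave back 0.39 ± 0.092 (SE; edgeR adjusted p = 1.4e-07 and 0.00225), at 777, 1881 and 1431 CPM. HK2, hexokinase 2, was at 91.8, 91.5 and 92.4 CPM in the control libraries, 132, 129 and 137 under the dimerizer and 71.6, 75.7 and 67.1 with TGF-β1 added and overshot below control. VEGFA, the vascular growth factor that ATF4 also induces, rose at step 1 (109, 161 and 138 CPM). CA9, a carbonic anhydrase, read 23.6, 22.4 and 19.2 CPM in the control libraries, 47.6, 28.96 and 49.7 under the dimerizer and 60.6, 59.7 and 52.9 with TGF-β1 added, with a full difference of 1.41 ± 0.35 (SE; edgeR adjusted p = 0.00282) and a first step of 0.95 that did not pass without any 1 of 8 libraries. The rises do not show low oxygen, which was not measured.

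The AP-1 genes, downstream of the deleted kinase, showed both patterns. Of 19 immediate early genes 11 rose and 3 fell at step 1 (22.5% and 17.9% of all tested genes). At step 2, 8 rose and 4 fell (30.5% and 30.3% of all), and 10 were higher and 3 lower in all (33.8% and 33.4%). At step 2 14 were higher and 3 lower on log2(TPM + 1), where 9 added up in place of 6. JUN was at 60.6, 64.05 and 65.4 CPM in the control libraries, 98.4, 84.1 and 103 under the dimerizer and 418, 390.1 and 381 with TGF-β1 added. It added up without overlap, most of the rise coming with TGF-β1, with steps of 0.59 ± 0.069 and 2.06 ± 0.066 (SE; edgeR adjusted p = 2.04e-06 and 5.74e-15). FOS, its partner, was at 75.9, 106 and 74.7 CPM in the control libraries, 147, 152 and 133 under the dimerizer and 62.8, 85.6 and 62.6 with TGF-β1 added. The dimerizer libraries were the highest and the outer groups overlapped, so FOS rose by 0.75 ± 0.16 and fell by 1.03 ± 0.16 (SE; edgeR adjusted p = 0.00194 and 8.16e-05). FOSL1 added up upward (18.7 ± 1.14, 29.4 ± 1.08 and 34.9 ± 0.825 CPM) and FOSL2 downward (470.4 ± 5.79, 294 ± 5.18 and 173 ± 4.21 CPM). MYC, which drives growth, rose and then fell past control (408 ± 15.8, 514 ± 3.53 and 261 ± 7.12 CPM). EGR1, an early growth factor response gene, was called as cancelling (157, 238 and 173 CPM) but lost the class without any 1 of 6 libraries. IER3, an early survival gene, added up (43.4, 73.2 and 97.98 CPM).

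Phosphatases that switch off MAP kinases rose with the dimerizer: 6 of 10 rose and 0 fell at step 1, 4 rose and 4 fell at step 2 (4 higher and 0 lower on log2(TPM + 1), where none cancelled in place of 3), and 7 were higher and 2 lower in all. Over all tested genes 22.5% rose and 17.9% fell at step 1, 30.5% and 30.3% at step 2, and 33.8% and 33.4% in all. DUSP4 was at 123, 118 and 116 CPM in the control libraries, 278, 263 and 290.0 under the dimerizer and 443, 458 and 417 with TGF-β1 added, and DUSP10, which acts on JNK and p38, at 17.3, 14.8 and 16.2 CPM in the control libraries, 24.1, 22.4 and 22.8 under the dimerizer and 71.3, 74.5 and 72.4 with TGF-β1 added. Both added up with no overlap, DUSP4 mainly at step 1 (1.22 ± 0.078) and DUSP10 mainly at step 2 (1.66 ± 0.05 SE; edgeR adjusted p = 6.93e-09 and 1.31e-21). DUSP5 and DUSP7, which act on ERK, returned in part (8.62, 23.5 and 19.2 CPM, and 102, 185 and 145 CPM). Of 14 stress kinases and activators, 4 rose and 4 fell at step 1 (40.4% of all tested genes passed). At step 2, 3 rose and 8 fell (60.7% of all passed), with 6 higher and 4 lower on log2(TPM + 1). In the full comparison 6 were higher and 7 lower (67.3% of all passed). MAP2K6, an activator of p38, was at 11.7, 10.2 and 9.62 CPM in the control libraries, 5.98, 6.67 and 5.95 under the dimerizer and 1.401, 1.81 and 1.73 with TGF-β1 added and fell in all by 2.67 ± 0.14 (SE; edgeR adjusted p = 1.73e-16). MAP3K5 (ASK1), an upstream kinase of JNK and p38, fell at both steps (45.3, 33.6 and 19.9 CPM), while MAP3K20 (ZAK), which senses stalled ribosomes, rose at both (127 ± 2.34, 207 ± 11.1 and 257 ± 2.35 CPM). The p38β gene MAPK11 rose and returned (19.4, 24.6 and 19.8 CPM).

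Inflammatory genes were split. Of 21 tested NF-κB targets and cytokines 6 rose and 7 fell at step 1 (22.5% and 17.9% of all tested genes). At step 2, 10 rose and 6 fell (30.5% and 30.3% of all), with 13 higher and 2 lower on log2(TPM + 1). In the full comparison 11 were higher and 7 lower (33.8% and 33.4% of all). The neutrophil chemokine CXCL8 was at 1.27, 1.13 and 1.95 CPM in the control libraries, 2.48, 3.54 and 2.83 under the dimerizer and 19.999, 21.7 and 29.8 with TGF-β1 added, most of the change lying at step 2 (2.998 ± 0.26 SE, edgeR adjusted p = 1.19e-07), and its step 1 of 1.05 failed the test without any 1 of 4 libraries. IL11, a cytokine that TGF-β induces, added up (2.39 ± 0.289, 5.45 ± 1.89 and 14.6 ± 0.387 CPM). LIF, of the same cytokine family, added up downward (8.36 ± 0.280, 4.98 ± 1.15 and 1.73 ± 0.121 CPM). TNFAIP3 (A20), the feedback inhibitor of NF-κB, dipped by 0.39 and returned by 0.33, at 89.2, 68.2 and 85.6 CPM. IL6 had at most 3 counts in a JNKKO group and was not tested.

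Autophagy and lysosome genes rose mainly with TGF-β1. Of 18, 6 rose and 4 fell at step 1 (22.5% and 17.9% of all tested genes), and 13 rose and 3 fell at step 2 (30.5% and 30.3%). In the full comparison 13 were higher and 3 lower (33.8% and 33.4% of all), with a median log2 of 0.35 in the list, and 7 added up (18.6% of all). MAP1LC3B, which coats autophagosomes, was at 54.3, 57.5 and 53.5 CPM in the control libraries, 65.6, 80.2 and 69.03 under the dimerizer and 111, 109.7 and 112 with TGF-β1 added, with steps of 0.38 ± 0.055 and 0.63 ± 0.052 (SE; edgeR adjusted p = 2.17e-06 and 3e-11). WIPI1, a phosphoinositide-binding autophagy protein, went through 3.91 ± 0.599, 7.68 ± 0.949 and 16.1 ± 1.18 CPM, and ATG5 through 23.8 ± 0.486, 30.3 ± 1.502 and 43.1 ± 2.702 CPM. ULK1, the initiating kinase, dipped and overshot (94.6 ± 1.41, 81.4 ± 9.43 and 122 ± 2.06 CPM). SQSTM1 (p62), the cargo receptor, passed at neither step (559.6, 545 and 538 CPM). GPNMB, a lysosomal glycoprotein, was at 344, 343 and 319 CPM in the control libraries, 351, 290.3 and 318 under the dimerizer and 27.4, 27.3 and 26.1 with TGF-β1 added. Control and dimerizer overlapped, and at step 2 it fell by 3.57 ± 0.32 (SE; edgeR adjusted p = 3.44e-07).

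To ask where JNKKO differed from WT, the full difference in JNKKO was compared with that in WT by an interaction term. Over all tested genes 6072 passed (35.9%; 2864 with the JNKKO difference above that in WT and 3208 below it, edgeR adjusted p under 0.05), 8.2% by at least 2-fold. Among the 314 stress genes 185 passed, 114 above and 71 below. For hypoxia genes 20 of 27 lay above WT and 1 below, for tRNA synthetases 9 of 13 above and none below, for ER disposal 8 of 10 above and none below, and for ER chaperones 9 of 18 above and 2 below. In the amino acid list 10 lay above and 5 below. On log2(TPM + 1) the counts above WT were 18 for hypoxia genes, 6 for tRNA synthetases, 2 for ER disposal and 7 for ER chaperones. WT chaperones also rose, 16 of 18 in the full comparison, with 6 higher and 3 lower at step 1, and the interaction at that step alone had 8 above WT and 0 below. Of the 9 ATF4 factors 2 lay above WT and 3 below. ASNS and TRIB3 are given as examples that lay above. WT ASNS was at 19.02, 19.7 and 17.7 CPM in its controls, 40.01, 29.7 and 32.3 under the dimerizer and 16.5, 15.9 and 16.2 with TGF-β1 added, so its final libraries lay below the WT controls, while in JNKKO they lay above: the interaction was 1.27 ± 0.23 (SE; edgeR adjusted p = 0.000578). WT TRIB3 was at 22.3, 28.3 and 30.1 CPM in its controls, 77.7, 69.6 and 69.1 under the dimerizer and 17.6, 21.8 and 24.6 with TGF-β1 added, with an interaction of 1.24 ± 0.24 (SE; edgeR adjusted p = 0.00108). DDIT3, which returned in JNKKO, differed by 0.35, which did not pass the test (edgeR adjusted p = 0.0938), and ATF4 by -0.077 (edgeR adjusted p = 0.262). Among DNA damage response genes 5 lay above and 12 below WT. Without the WT library whose tag says JNK knockout, 6016 genes passed in all and, of the 314 stress genes, 124 above and 68 below. Leaving out replicate 1 of that WT group, which stood apart, gave 5751 genes. Mitochondrially encoded RNA also differed, with WT at 13.1% of counts in control and 8.16% at the end, and 7 of the 13 genes passed the interaction below WT.

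**Figure D5:**
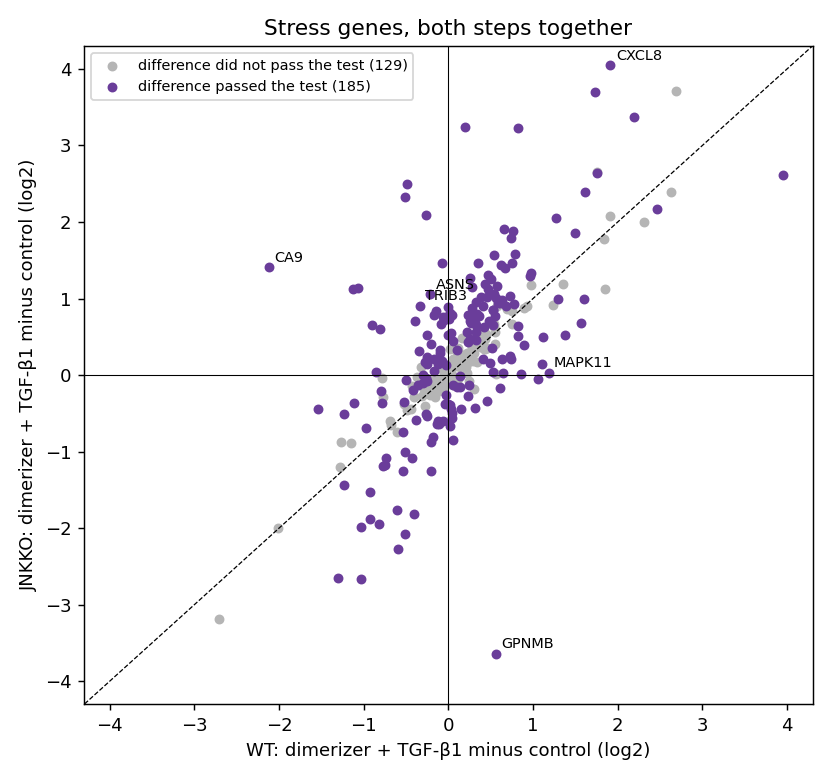
Log2 difference between dimerizer with TGF-β1 and control in JNKKO (vertical) against WT (horizontal) for the 314 tested stress genes, 1 point per gene, with the 185 that passed the interaction test in purple and the line of equal difference dashed. GPNMB lies far below the line, CA9 far above it.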

How the data were processed

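RNA from the 18 libraries was sequenced after oligo(dT) selection and ribosomal depletion, per the labels' protocols. The authors deposited RSEM expected counts and TPM per gene and library, made with cutadapt and RSEM on hg38, per the submitters' processing notes. Aligner, annotation and strand setting: not given in the sources used here. Overlapping and antisense genes may therefore share reads. Expected counts were rounded to whole numbers. Of 42141 deposited gene names, 127 had been altered by text replacement or a spreadsheet and were restored, and coordinates were matched to GENCODE release 29. Counts of all 18 libraries (24243537 to 34499651 per library) were fitted in edgeR 4.0.16 (R 4.3.3) by the robust quasi-likelihood test, with TMM factors, its default expression filter (16911 genes), 1 mean per group and Benjamini-Hochberg adjustment over all tested genes at 0.05. The SE of a log2 difference was the estimate divided by the root of its F value. The fit was also run on simulated counts drawn from its own estimates, with an outcome that is not given here. Alternatives used DESeq2 1.42.0, other factors or filters, limma 3.58.1 on log2(TPM + 1) and log2(TPM + 0.1), JNKKO libraries alone, no mitochondrially encoded genes, the replicate number as a block, and leaving out each library. Same-numbered libraries did not pair: their deviations correlated at -0.0585 to 0.026. Members and lists were chosen with earlier results of these data known. Genes named were 55 regulators and targets, up to 3 that add up and up to 3 that cancel per list with the largest smaller step at 5 CPM or more, the most changed gene of a list with neither, and the 8 largest rises and 8 largest falls without overlap at 5 CPM or more, pseudogenes left out.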

Additional observations from a re-analysis of the deposited data

Results flagged for a closer look

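Of 54 tested regulators and targets chosen for naming, 34 differed between genotypes in the full comparison by the interaction test (35.9% of all tested genes). Of these, 10 differed by at least 2-fold (8.2% of all). Values are the JNKKO log2 difference minus that in WT, with SE.

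GPNMB differed most (-4.2 ± 0.42, edgeR adjusted p = 4.4e-06): in JNKKO it was near its control level under the dimerizer and lower with TGF-β1, while WT read 72.03, 62.9 and 68.3 CPM in its controls, 692, 653 and 757 under the dimerizer and 168, 70.01 and 61.1 with TGF-β1 added. CA9 followed (3.53 ± 0.73, edgeR adjusted p = 0.00195), with WT at 12.4, 3.68 and 5.41 CPM in its controls, 7.47, 11.1 and 7.89 under the dimerizer and 0.121, 1.33 and 3.52 with TGF-β1 added, so its WT libraries spread widely. The WT values of 168 CPM for GPNMB and 0.121 CPM for CA9 are from replicate 1, the WT library that stood apart. The full difference in GPNMB was -3.64 in JNKKO and 0.56 in WT, where control and final libraries overlapped and the test was not passed (edgeR adjusted p = 0.109). CA9 rose in JNKKO by 1.41 and fell in WT, with a log2 difference of -2.12 (edgeR adjusted p = 0.0127). ATF4 targets stood above WT as well, ASNS (1.27 ± 0.23, edgeR adjusted p = 0.000578), TRIB3 (1.24 ± 0.24, edgeR adjusted p = 0.00108), and PSAT1 (1.09 ± 0.16, edgeR adjusted p = 0.000144), which ended 1.53 below control in WT.

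ATF3 (-1.55 ± 0.27, edgeR adjusted p = 2.64e-05) and BCL2L11 (-1.17 ± 0.091, edgeR adjusted p = 6.09e-11) were lower with the full treatment in both genotypes, and more so in JNKKO. Conversely, DUSP4 (1.12 ± 0.11, edgeR adjusted p = 1.4e-06), GADD45B (1.01 ± 0.13, edgeR adjusted p = 1.04e-06) and CXCL8 (2.13 ± 0.56, edgeR adjusted p = 0.00854) were higher in both, and more so in JNKKO. CXCL8 in WT read 0.508, 1.03 and 0.705 CPM in its controls, 1.86, 1.84 and 1.77 under the dimerizer and 1.84, 2.22 and 4.41 with TGF-β1 added. Without WT control replicate 2 its interaction was 1.83 and did not pass. GADD45B in WT dipped further under the dimerizer, to 5.59 from 27.3 CPM. The causes of these differences were not tested.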

How the results depend on the processing

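Of 8730 values for 141 named genes, 8392 kept their side of the threshold, 224 dropped below it and 83 passed it. The other 31 changed sign where the reported or the alternative value passed, and only these are listed below. Changes of sign between values that passed in neither fit are counted among the 8392. An example is the full difference of SLC7A11, at 0.0796 on log2(TPM + 1). Settings numbered 30, but not every value was read in each. Leaving out a WT library, other than the one with the knockout tag, gave gene values only for the interaction, in 10 genes. The limits on step size and on CPM gave class counts only. The numbers of genes called in the 3 JNKKO comparisons and the interaction, and of stress genes that added up or cancelled, stayed within 1.5 times the reported ones in every setting, except that with both steps at least 1.2-fold, a limit added after seeing the data, 57 stress genes added up. Counts within single lists and splits into higher and lower moved more on TPM, as given with several of the lists. Step counts on TPM are not given for ATF4 factors, ATF4 and CHOP effectors, ER chaperones, ER disposal, metal response, hypoxia and autophagy. Those counts may have moved as well. Leaving out 1 JNKKO library at a time gave 88 to 97 stress genes that added up and 60 to 66 that cancelled. On log2(TPM + 1) and log2(TPM + 0.1), where the median of all genes moves upward at step 2, these changed sign: DDIT4 step 2 (0.0998 and 0.0999), ATF6 step 2 (0.1367 and 0.1456), HSPA1A step 2 (0.0795 and 0.08), DNAJB1 step 2 (0.0548 and 0.0552) and in all (0.095 and 0.0958), MAPK8 step 2 (0.1046 and 0.1183), ERBB2 step 2 (0.1024 and 0.1075), EIF2AK4 step 2 (0.0896 and 0.093) and in all (0.1611 and 0.1673), SARS in all (0.1663 and 0.1673), LONP1 step 2 (0.0212 and 0.0217) and in all (0.1683 and 0.1716), FTH1 step 2 (0.1346 and 0.1346), CAT step 2 (0.0563 and 0.0583), and TP53INP1 in all (0.1481 and 0.1593). With TPM centred on each library's median, also added later, ARNT in all was -0.0567. The cause was not tested.

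With the replicate number as a block, 11382 genes passed in the full comparison, 99 stress genes added up and 70 cancelled. The numbers do not pair the libraries, and not every library correlated best with its own number. CPM are relative to the other RNA of a library, so a level per cell cannot be read from them. With 3 libraries per group, small steps such as those of ATF6, PRDX2 and MCL1 depend on single libraries.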
